A study of Drosophila melanogaster with 6 samples.

Results

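The 10 genes described here encode parts of the basement membrane and products of hemocytes, the blood cells of the fly. They were chosen by name: the collagen IV chains Col4a1 and vkg, the collagen-binding protein SPARC, the laminin chains LanA, LanB1 and LanB2, the extracellular matrix proteins Pxn and Ppn, and the hemocyte genes Hml and NimC1. All 10 were found in the deposited table of 14150 genes, and all 10 were among the 10074 genes that passed the expression filter. RNA-seq of polyadenylated RNA was done on brains of female Drosophila melanogaster larvae in the late L3 stage, raised at 29 °C until 96 h after egg laying. Both groups carried a w mutation and worniu-gal4, a driver active in neuroblasts, the neural stem cells. In the ctrl group it drove UAS-gfp-i, by its name an RNAi transgene against GFP, and in the CIN group UAS-bub3-i, against the spindle checkpoint gene Bub3. Each group had 3 libraries, 1 in each of batches 4, 5 and 6, and each library came from 3 pooled brains, with replicates taken on different days.

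The basement membrane is a sheet of extracellular matrix that covers the larval brain and other organs. Laminin, a trimer of an alpha, a beta and a gamma chain, builds a first network on the cell surface, and collagen IV, a trimer of Col4a1 and vkg chains, forms a second one that gives the sheet its strength. In fly larvae much of the collagen IV is made by fat body and hemocytes and reaches other organs through the hemolymph, while glia at the brain surface also take part in making the sheath of the nervous system. Hemocytes are not brain cells, but they attach to the surfaces of organs and can be carried along in a dissection. The driver acts in neuroblasts, and the measured RNA is that of whole brains with whatever tissue stayed attached.

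Libraries stood apart from others of their group before any comparison. Totals ran from 24668180 to 26292208 counts. The CPM of a gene is its count scaled to a common library size. Bub3 itself had a mean of 139 ± 13.8 CPM (SD, n = 3) for ctrl against 89.4 ± 8.31 CPM for CIN and was lower in CIN in all 3 batches, with adjusted p of 0.333 by edgeR and 0.00364 by DESeq2. Ctrl 4 and CIN 5 had only 34.9 and 28.5 CPM of the markers of the ring gland, an endocrine gland attached to the brain, against 1228 to 3870 CPM in the other 4 libraries. The RNA lncRNA:roX2, which belongs to dosage compensation in males, had 243 counts in CIN 5 and 0 to 6 in the other 5 libraries, though the larvae are described as female. Without CIN 5, as with it, 0 of the 10 genes passed the test. The 5 neuron markers summed to between 1221 and 1833 CPM and the 5 markers of all glia to between 953 and 1574 CPM, so the libraries hold the RNA of a brain.

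Between genotypes, no gene of this group differed beyond the spread of its libraries, while several differed many-fold between libraries of the same genotype. With edgeR's quasi-likelihood test (Benjamini-Hochberg adjusted over 10074 genes), 0 of the 10 were higher and 0 lower in CIN, with adjusted p from 0.786 to 0.999, against 0.0496% of all tested genes in each direction and 0.0993% in both together. At an unadjusted p under 0.05 there were again 0 of 10, against 7.89% of all tested genes, and DESeq2 called 0 of 10, against 1.06%. The ranges of ctrl and CIN overlapped for all 10, whereas 15.3% of tested genes had no overlap, 7.10% being higher in CIN and 8.18% lower. Log2 fold changes were positive for 5 and negative for 5, with a median of 0.02 against 0.01 over all tested genes. In bulk RNA, fewer cells of a type and less RNA per cell cannot be told apart. The median depended on single libraries: it was -0.42 without CIN 4, -0.14 without ctrl 6, 0.19 without ctrl 5, 0.25 without CIN 5 and 0.29 without CIN 6.

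**Figure D1:**
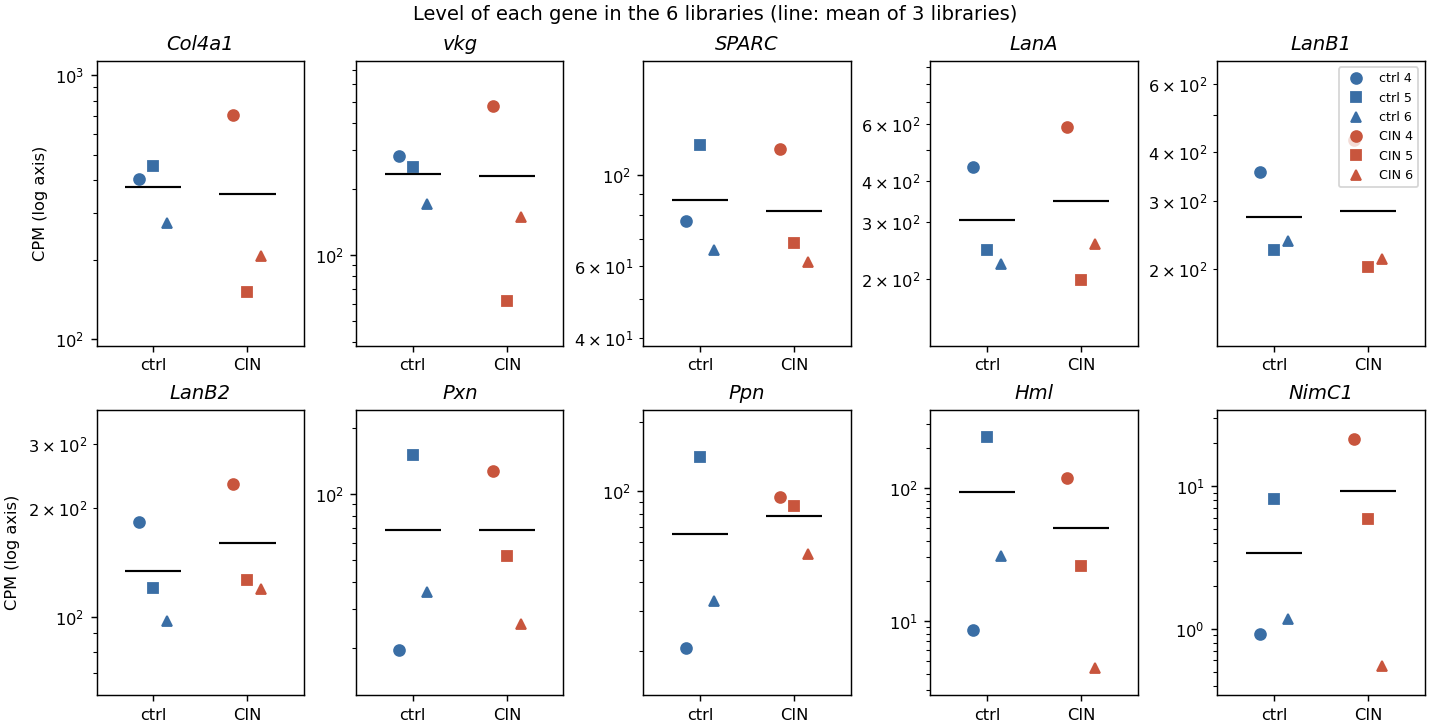
CPM of each of the 10 genes on a log axis, with 1 point per library (circle, square and triangle for batches 4, 5 and 6, blue for ctrl and red for CIN) and a line at the mean of the 3 libraries. The ranges of ctrl and CIN overlap in every panel, and the spread is widest for Hml, from 4.44 to 240 CPM.

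The collagen IV chains were abundant in all libraries and varied most within CIN. Col4a1, at 2L:5029609-5037279 of dm6 and listed as FBgn0000299, gave 403, 453 and 275 CPM across ctrl 4, 5 and 6, while CIN 4, 5 and 6 gave 707, 151 and 207 CPM. CIN 4 was the highest library and CIN 5 the lowest, with all 3 ctrl libraries between them. The partner chain vkg (FBgn0016075, 2L:5012144-5028191) measured 282, 252 and 171 CPM across ctrl 4, 5 and 6, while CIN 4, 5 and 6 gave 478, 61.7 and 149 CPM, so the same libraries were at the ends of its range. These 2 genes lie head to head on opposite strands, with 1417 bases between their annotated starts. For Col4a1 the mean of ctrl was 377 ± 92.1 CPM and that of CIN 355 ± 306 CPM (SD, n = 3). The log2 fold changes were -0.09 ± 0.57 (SE) for Col4a1 and -0.03 ± 0.67 for vkg (edgeR, adjusted p = 0.976 and 0.996). Within batches the signs differed. For Col4a1 log2 of CIN over ctrl was 0.81 in batch 4, -1.59 in batch 5 and -0.41 in batch 6, and for vkg it was 0.76, -2.03 and -0.20. The values depended on single libraries. Without CIN 4, the log2 fold changes were -1.08 for Col4a1 and -1.16 for vkg, with adjusted p of 0.453 and 0.499 (edgeR). Both genes were then at an unadjusted p under 0.05, as were 9.72% of the genes tested without CIN 4. Without both ctrl 5 and CIN 4, Col4a1 was at -0.92 and again under that p, as were 8.28% of the genes then tested. Leaving out other libraries moved the sign the other way. Col4a1 and vkg were at 0.27 and 0.41 without CIN 5, 0.18 and 0.19 without CIN 6, and 0.06 and 0.02 without ctrl 5. They were at -0.04 and 0.12 without ctrl 4, and at -0.27 and -0.22 without ctrl 6.

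Per length, Col4a1 was the more abundant collagen chain in each library. Its level in CPM per kb of exon was 1.51, 1.90 and 1.70 times that of vkg in ctrl 4, 5 and 6 and 1.56, 2.58 and 1.47 times in CIN 4, 5 and 6. The collagen IV trimer is generally described as holding more Col4a1 than vkg chains, but these RNA ratios do not measure the chains of the protein. The ratio was highest in CIN 5, the library with the least of both. The groups overlapped, with means of 1.70 ± 0.20 in ctrl and 1.87 ± 0.62 in CIN (SD, n = 3; exact permutation test of the log2 ratio, two-sided, p = 0.9, where the smallest p for 3 against 3 libraries is 0.1).

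SPARC (FBgn0026562, 3R:26869238-26871995), a glycoprotein that binds collagen IV and is needed for its proper assembly into the matrix, was the steadiest of the 10 genes. It measured 77.3, 119 and 65.7 CPM across ctrl 4, 5 and 6, while CIN 4, 5 and 6 gave 116, 68.4 and 61.4 CPM. Ctrl 5 and CIN 4 were high and the other 4 libraries lay close together, so the highest was 1.94 times the lowest. Its log2 fold change was -0.09 ± 0.31 (SE; edgeR, adjusted p = 0.955). Relative to Col4a1, SPARC per kb stood at 0.84 in CIN 4 and 2.33 in CIN 5, so Col4a1 was further below its own mean than SPARC in CIN 5.

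The 3 laminin chains were high in both libraries of batch 4. LanA (FBgn0002526, 3L:6203831-6218022), the alpha chain, measured 442, 246 and 222 CPM across ctrl 4, 5 and 6, while CIN 4, 5 and 6 gave 586, 199 and 256 CPM. LanB1 (FBgn0261800, 2L:7811438-7820771), the beta chain, measured 356, 223 and 236 CPM across the ctrl libraries, while those of CIN gave 430.3, 202 and 212 CPM in the same order. LanB2 (FBgn0267348, 3L:9614914-9623980), the gamma chain, measured 183, 120.2 and 97.2 CPM across the ctrl libraries, while those of CIN gave 233, 127 and 119 CPM. For each chain CIN 4 was highest and ctrl 4 second, and the other 4 libraries were close to one another in both genotypes. With vkg, 4 of the 10 genes thus had ctrl 4 and CIN 4 as their highest libraries, as did 12.9% of all tested genes. CIN 4 was the highest library for 6 of the 10 genes, and for 23.1% of all tested genes.

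Between genotypes the laminins did not differ beyond the spread of their libraries. Their log2 fold changes were 0.20 ± 0.45 for LanA, 0.05 ± 0.34 for LanB1 and 0.26 ± 0.33 for LanB2 (SE; edgeR, adjusted p = 0.926, 0.978 and 0.843). With the batch as a replicate block these SEs shrank to 0.18, 0.15 and 0.11, and no chain passed the test (edgeR, adjusted p = 0.855, 0.987 and 0.605). LanB2 was the only one of the 10 genes with the same sign in the 3 batches, at log2 values of 0.35, 0.07 and 0.30 in batches 4, 5 and 6, and 36.0% of all tested genes had one sign in the 3 batches. Without CIN 4 alone, the log2 fold changes of LanA, LanB1 and LanB2 were -0.41, -0.40 and -0.12. Without both ctrl 5 and CIN 4, they were -0.54, -0.52 and -0.19, and without ctrl 5 alone 0.06, -0.08 and 0.19. The direction thus rests on CIN 4 for LanA and LanB2. That of LanB1 also changed without ctrl 5 or without ctrl 6, where it was at -0.04.

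Per length, LanB1 was the most abundant laminin chain, at 44.0 CPM per kb as a mean over the 6 libraries, against 27.8 for LanA and 24.8 for LanB2. LanB1 exceeded LanB2 by 1.83, 1.75 and 2.29 times in ctrl 4, 5 and 6 and by 1.74, 1.50 and 1.67 times in CIN 4, 5 and 6. All CIN values of this ratio were below all ctrl values, although the counting intervals of the nearest libraries, ctrl 5 at 1.67 to 1.83 and CIN 4 at 1.68 to 1.80, overlapped (exact permutation test, two-sided, p = 0.1, the smallest this design allows, and 0.533 after Benjamini-Hochberg adjustment over 16 ratios). LanA relative to LanB1 ran from 0.50 to 0.73 and overlapped between genotypes. The other alpha chain of the fly, wb, was far less abundant, with LanA at 4.32 to 14.3 times its level per kb.

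**Figure D2:**
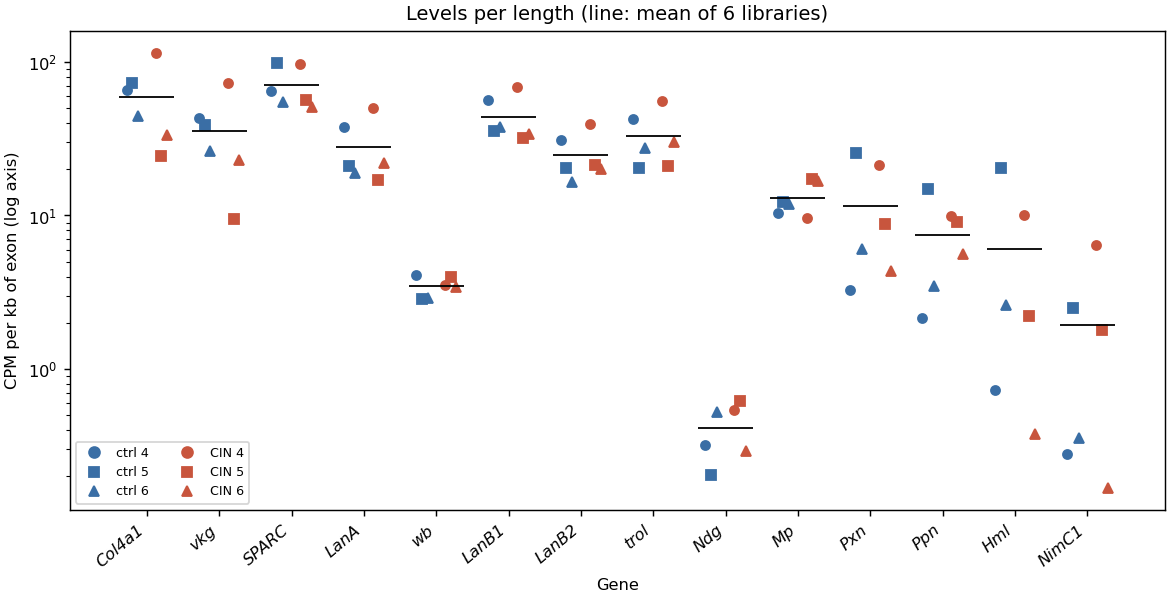
CPM per kb of exon on a log axis for the 10 genes and for wb, trol, Ndg and Mp, with 1 point per library and a line at the mean of the 6 libraries. SPARC, the collagen IV chains, LanA, LanB1, LanB2 and trol have means from 24.8 to 70.5, and Pxn, Ppn, Hml and NimC1 have lower means and a wider spread.

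By mean CPM per kb over the 6 libraries the order was SPARC at 70.5, Col4a1 at 59.3, LanB1 at 44.0, vkg at 35.7, LanA at 27.8, LanB2 at 24.8, Pxn at 11.5, Ppn at 7.51, Hml at 6.06 and NimC1 at 1.92. Of the 9 steps between neighbours in this order, only that from LanB2 to Pxn was larger than the SD of the difference over the libraries (13.2 against 10.8). That step held in 5 of 6 libraries. Hml was above NimC1 in 6 of 6 libraries, by amounts that varied widely, while the other 7 steps held in 4 or 5 of 6, that from SPARC to Col4a1 in 4.

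Pxn and Ppn, matrix proteins secreted by hemocytes among other cells, followed the hemocyte genes more than the laminins. Pxn (FBgn0011828, 3L:2601455-2630064), a peroxidase that cross-links collagen IV, measured 19.5, 151 and 35.8 CPM across ctrl 4, 5 and 6, while CIN 4, 5 and 6 gave 128, 52.2 and 25.8 CPM. Ppn (FBgn0003137, 3R:28520665-28540324), the proteoglycan-like protein papilin, measured 20.6, 142 and 33.2 CPM across the ctrl libraries, while those of CIN gave 94.9, 86.5 and 53.3 CPM. In both genes ctrl 5 was the highest library and ctrl 4 the lowest, so the ctrl group alone spanned the whole range, 7.76-fold for Pxn and 6.86-fold for Ppn. The log2 fold changes were -0.01 ± 0.84 for Pxn and 0.27 ± 0.68 for Ppn (SE; edgeR, adjusted p = 0.999 and 0.932). Without ctrl 5 they were 1.30 and 1.54, with adjusted p of 0.806 and 0.704 (edgeR). Without ctrl 5, and also without both ctrl 5 and CIN 4, Ppn was at an unadjusted p under 0.05, as were 5.99% and 8.28% of the genes then tested. Exons of Pxn overlap those of CG16986 on the opposite strand and of lncRNA:CR45660 on the same strand, with 1433 and 5 counts over all libraries, against at least 485 for Pxn in each library.

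The hemocyte genes had the widest spread. Hml (FBgn0029167, 3L:13846054-13860001) encodes hemolectin, a large secreted protein of hemolymph clotting, and measured 8.60, 240 and 30.8 CPM across ctrl 4, 5 and 6, while CIN 4, 5 and 6 gave 118, 26.05 and 4.44 CPM. NimC1 (FBgn0259896, 2L:13973158-13976769), a phagocytosis receptor of plasmatocytes, the main hemocyte class, measured 0.92, 8.15 and 1.17 CPM across the ctrl libraries, while those of CIN gave 21.2, 5.90 and 0.55 CPM. Ctrl 5 and CIN 4 were the highest libraries for both, and ctrl 4 and CIN 6 the lowest. The highest was 53.9 times the lowest for Hml and 38.6 times for NimC1, whose lowest value rests on 15 counts. Log2 fold changes were -0.91 ± 1.38 for Hml and 1.43 ± 1.28 for NimC1 (SE; edgeR, adjusted p = 0.868 and 0.786). Within batches, log2 of CIN over ctrl was 3.78, -3.20 and -2.80 for Hml and 4.52, -0.47 and -1.09 for NimC1 in batches 4, 5 and 6. Without ctrl 5, Hml was at 1.32 and NimC1 at 3.13, and without CIN 4 they were at -2.61 and -0.09, all with adjusted p of at least 0.546 (edgeR).

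**Figure D3:**
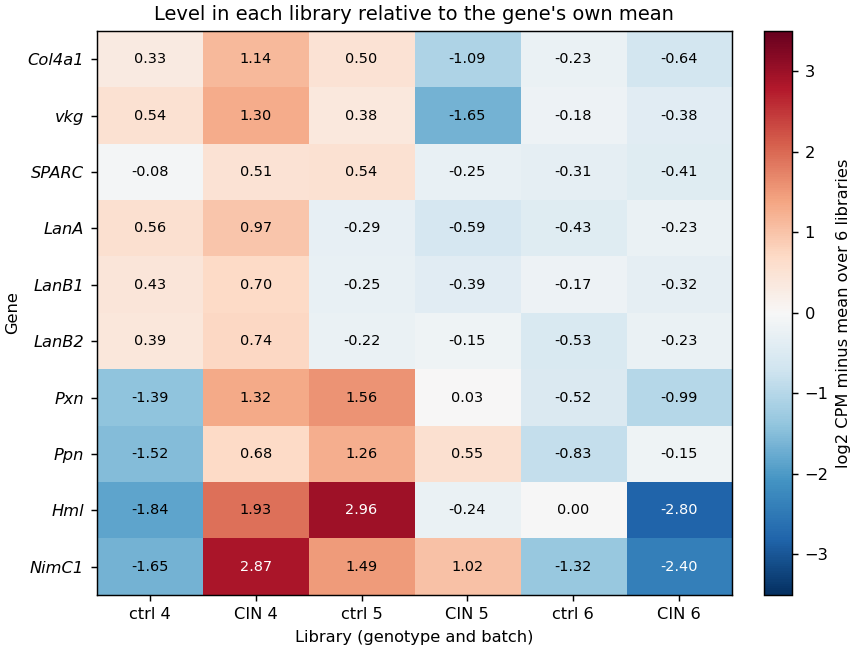
Log2 CPM of each gene in each library minus the gene's mean over the 6 libraries, with red for high and blue for low. The laminin chains are high in ctrl 4 and CIN 4, where they stand 0.39 to 0.97 above their mean, while Pxn, Ppn, Hml and NimC1 are 1.39 to 1.84 below their mean in ctrl 4 and high in CIN 4 and ctrl 5.

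Hence 2 patterns were seen, that of the laminin chains and that of Pxn, Ppn, Hml and NimC1, and ctrl 4 separated them. In that library LanA, LanB1 and LanB2 were the second highest of the 6 and vkg was too, while Pxn and Ppn were at their lowest and Hml and NimC1 at their second lowest. Col4a1 was 89.3 times Hml per kb in ctrl 4 and 88.7 times in CIN 6, but 3.61 times in ctrl 5. In ctrl 4 laminin and vkg transcripts were abundant and Hml RNA was scarce, whereas in CIN 6 the laminins and collagen IV chains were themselves below their means. In CIN 4 all 10 genes were above their own mean. Col4a1 and vkg were above their means in both ctrl 4, by log2 values of 0.33 and 0.54, and ctrl 5, by 0.50 and 0.38. SPARC was near its mean in ctrl 4, at -0.08, and above it in ctrl 5, at 0.54. The library ctrl 4 thus did not place these genes in either pattern. Of the 10 genes, Col4a1, SPARC, Pxn, Ppn, Hml and NimC1 had ctrl 5 and CIN 4 as their highest libraries, as did 9.69% of all tested genes. These patterns were described after the values were seen and carry no test.

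The spread within genotypes was larger for these genes than for most tested genes. The SD of log2 CPM within genotypes had a median of 0.97 over the 10 genes and 0.24 over all tested genes, and it was above that median for each of the 10. It ran from 0.47 for SPARC, higher than in 77.8% of tested genes, to 2.39 for Hml, higher than in 99.3%. The laminins had 0.69, 0.50 and 0.50 for LanA, LanB1 and LanB2. Some marker lists of other attached tissues and cells had higher medians still. These were 1.93 for plasmatocytes, 2.07 for crystal cells, 1.61 for fat body, 1.15 for salivary gland and 3.96 for ring gland. Others had lower medians than the 10 genes, at 0.69 for lamellocytes, 0.69 for muscle, 0.66 for heart and pericardial cells and 0.46 for trachea. A wide spread was thus not particular to the 10 genes, nor shared by all lists of attached tissues and cells. No test was made of these differences in spread.

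Other hemocyte genes were checked against the same libraries. The plasmatocyte receptor gene eater measured 4.75, 59.96 and 11.8 CPM across ctrl 4, 5 and 6, while CIN 4, 5 and 6 gave 83.2, 14.3 and 0.99 CPM, the same order of libraries as for NimC1. The GATA factor gene srp reached 30.5 CPM in CIN 4 and 0.48 to 8.97 CPM in the others. With He, Sr-CI, NimB4 and NimB5, these genes, chosen after their values were seen, had ctrl 5 and CIN 4 as their highest libraries. NimC2, a Nimrod receptor of the same list, did not. It measured 0.92, 0.73 and 0.43 CPM across ctrl 4, 5 and 6, while CIN 4, 5 and 6 gave 1.71, 1.74 and 1.10 CPM. Its groups did not overlap (log2 fold change 1.12 ± 0.42, SE, edgeR adjusted p = 0.603), on 11 to 44 counts per library. Within the plasmatocyte list the most abundant members were crq, Pvr and ush, which are not limited to hemocytes. Pvr, a receptor tyrosine kinase, was high in ctrl 4 and CIN 4 instead, at 77.05 CPM or more against 20.5 to 30.7 CPM elsewhere. Both crq and ush varied less, and ush ran from 24.6 to 39.8 CPM. For crq the groups did not overlap, at 63.1 to 67.1 CPM in ctrl and 74.5 to 96.1 CPM in CIN (log2 fold change 0.40 ± 0.12, SE, edgeR adjusted p = 0.578). Groups without overlap were found for 15.3% of all tested genes. The sum over the whole list of 10 lay between 147 and 245 CPM for ctrl and between 131 and 381 CPM for CIN, with none at 0 in a library. Of its members 0 passed edgeR's test in either direction, and the median log2 fold change was 0.26. At an unadjusted p under 0.05, 2 were higher, against 7.89% of all tested genes in either direction.

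Genes of crystal cells, the hemocytes that store prophenoloxidase for melanization, were abundant in ctrl 5. PPO1 measured 3.06, 366 and 6.31 CPM across ctrl 4, 5 and 6, while CIN 4, 5 and 6 gave 58.8, 23.7 and 1.25 CPM. PPO2 measured 13.1, 445 and 13.7 CPM across the ctrl libraries, while those of CIN gave 83.4, 34.05 and 7.12 CPM. Ctrl 5 was thus far above all others, CIN 4 included, and their log2 fold changes of -2.17 and -1.92 rest on it: without ctrl 5 they were 2.57 and 1.63. The Runx factor gene lz, which specifies crystal cells, was also highest in ctrl 5, at 13.8 CPM against 0.74 to 4.88 CPM. The remaining listed gene, fok, lay at 78.4 to 108 CPM in all libraries. The sum over these 4 genes lay between 105 and 916 CPM for ctrl and between 91.6 and 250.3 CPM for CIN, with 0 members called. Of the 3 genes listed for lamellocytes, the large hemocytes that wrap parasites, 0 were called. The gene atilla stayed between 2.42 and 6.94 CPM, and cher, an actin-binding filamin also made in other cells, between 84.7 and 215 CPM. PPO3 measured 1.79 to 1.87 CPM in ctrl and 2.83 to 4.47 CPM in CIN (log2 fold change 0.91 ± 0.31, SE, edgeR adjusted p = 0.603). Its groups did not overlap, as in 15.3% of all tested genes.

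The mix of hemocyte transcripts was not the same in the libraries rich in them. Per kb, Hml was 2.61, 8.22 and 7.38 times NimC1 in ctrl 4, 5 and 6 and 1.55, 1.24 and 2.26 times in CIN 4, 5 and 6. All CIN values lay below all ctrl values, with means of 6.07 ± 3.03 and 1.68 ± 0.52 (SD, n = 3; exact permutation test of the log2 ratio, two-sided, p = 0.1, the smallest possible, and 0.533 adjusted over 16 ratios). The 95% exact intervals of the 2 nearest libraries, 1.69 to 4.20 in ctrl 4 and 1.32 to 4.16 in CIN 6, overlap, and they cover counting error only. NimC1 relative to eater did not overlap either, at 0.20, 0.14 and 0.10 in ctrl and 0.26, 0.41 and 0.56 in CIN 4, 5 and 6 (exact permutation p = 0.1, adjusted 0.533), while Hml relative to eater did, from 0.51 to 1.12 in ctrl and from 0.40 to 1.26 in CIN (exact permutation p = 0.8). Of the 16 ratios, 3 had groups that did not overlap, and none passed adjustment. The 16 ratios were settled, and these 3 singled out, after values had been seen, and some ratios tried at first were dropped, so the adjusted p is too small.

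**Figure D4:**
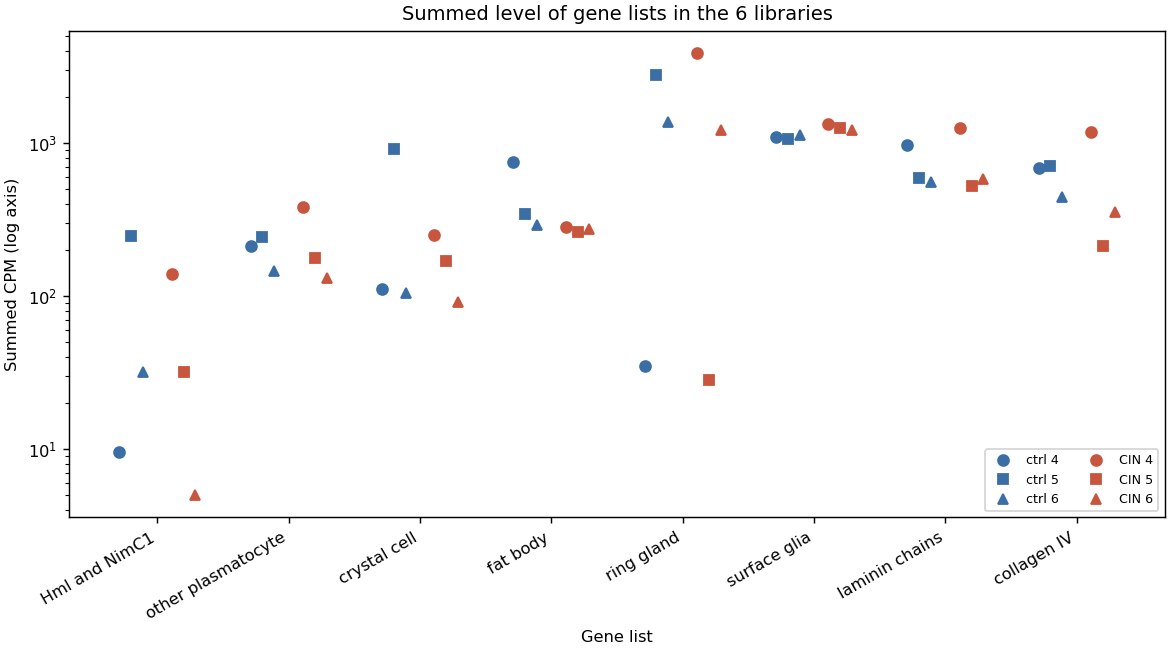
Summed CPM of gene lists on a log axis, with 1 point per library, marked by batch and genotype as in the plot of levels per gene. Ring gland markers are at 34.9 and 28.5 CPM in ctrl 4 and CIN 5, fat body markers are highest in ctrl 4, and surface glia markers stay between 1061 and 1341 CPM.

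Markers of other tissues that make basement membrane were measured beside these genes. The sum of the 9 fat body markers was 760 CPM in ctrl 4 and lay between 263 and 347 CPM in the other 5 libraries. Of them, the larval serum protein gene Lsp1beta measured 178 CPM in ctrl 4 and 4.59 to 28.5 CPM elsewhere, while apolpp, which encodes a lipoprotein, and Mtp, which loads lipid onto it, were present in all libraries at 118 to 224 and 49.7 to 65.7 CPM. Ctrl 4 was second highest for vkg and came after CIN 4 and ctrl 5 for Col4a1. CIN 4, highest for both, had a fat body sum of 284 CPM, of which apolpp, lowest in CIN 4, made up 118 CPM. Lsp1alpha, Lsp1beta, Lsp1gamma, Lsp2 and Fbp1, named after their values were seen, had ctrl 4 and CIN 4 as their highest libraries. So did 12.9% of all tested genes, while Fbp2, apolpp, Apoltp and Mtp did not. None of the 9 was called, and 7 were on the negative side (median log2 fold change -1.82). Among them 2, Fbp2 and apolpp, were lower in CIN at an unadjusted p under 0.05. That p was reached by 7.89% of all tested genes in either direction. For apolpp each CIN library, at 118, 144 and 173 CPM, was below each ctrl library, at 213, 224 and 189 CPM (log2 fold change -0.52 ± 0.16, SE; edgeR, adjusted p = 0.578). Mtp went the other way without overlap, at 49.7 to 52.4 CPM in ctrl and 54.6 to 65.7 CPM in CIN (log2 fold change 0.23 ± 0.11, SE; edgeR, adjusted p = 0.668). Of all tested genes, 8.18% were lower and 7.10% higher in CIN without overlap. The part of fat body RNA in the collagen IV values was not tested.

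The sum of the 8 surface glia markers lay between 1061 and 1139 CPM for ctrl and between 1213 and 1341 CPM for CIN. Single genes among them differed: moody, a receptor of the blood-brain barrier glia, chosen after its values were seen, was highest in CIN 4 and ctrl 4, at 122 and 97.1 CPM against 43.1 to 71.6 CPM, the libraries also highest for the laminins, whereas Lac and Nrx-IV, genes of septate junctions, were highest in CIN 5, at 506 and 426 CPM. The transporter gene Mdr65 ran from 137 CPM in CIN 5 to 450.3 CPM in CIN 4. Ring gland markers were most abundant in CIN 4, at 3870 CPM for the 10 genes, and in ctrl 5, at 2783 CPM, the libraries that were also highest for Hml and NimC1. Yet CIN 5, with 28.5 CPM of ring gland markers, held 5.90 CPM of NimC1, and CIN 6, with 1228 CPM, held 0.55 CPM. The part of attached ring gland tissue in the hemocyte values was not tested. Markers of muscle summed to 107 to 291 CPM, of trachea to 152 to 254 CPM, and of heart and pericardial cells to 50.9 to 81.4 CPM, with 0 called in each of these lists and in those of ring gland, surface glia, all glia and neurons. The 6 salivary gland markers summed to 20.4 to 81.5 CPM for ctrl and 2.57 to 18.6 CPM for CIN, without overlap. All 6 were on the negative side (median log2 fold change -1.91), and 3 were lower at an unadjusted p under 0.05, but 0 were called. Singly, Sgs3 and Sgs5 had groups without overlap, while those of Sgs1, Sgs4, Sgs7 and Sgs8 overlapped. Of all tested genes, 7.89% were under that p in either direction and 8.18% were lower in CIN without overlap.

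Other components of the basement membrane showed the same spread for perlecan. The perlecan gene trol, a heparan sulfate proteoglycan, measured 878, 424 and 566 CPM across ctrl 4, 5 and 6, while CIN 4, 5 and 6 gave 1157, 435 and 620.3 CPM, with CIN 4 and ctrl 4 highest, as for the laminins. Its ratio to LanB1 per kb kept within 0.58 to 0.89 over the 6 libraries. By contrast wb, at 39.7 to 57.1 CPM, and Mp, a collagen of the XV/XVIII type at 63.3 to 113 CPM, did not share that order, and the nidogen gene Ndg was low, at 0.97 to 2.97 CPM. The log2 fold changes were 0.24 ± 0.41 for trol, 0.14 ± 0.17 for wb, 0.34 ± 0.23 for Mp and 0.46 ± 0.47 for Ndg (SE; edgeR, adjusted p = 0.886, 0.837, 0.721 and 0.807).

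No gene that processes collagen, cuts the matrix or binds it passed the test. Their signs are to be read beside the 5170 of 10074 tested genes with a positive log2 fold change. Of 6 genes for collagen modification and secretion, 0 were called and 5 were positive, with a median log2 fold change of 0.12. The most abundant, Pdi, Sar1 and Sec23, a protein disulfide isomerase and 2 parts of the secretory coat, lay at 580.2 to 725, 226 to 260.0 and 178 to 220 CPM. Tango1, which exports collagen from the endoplasmic reticulum, measured 119, 98.3 and 119 CPM across ctrl 4, 5 and 6, while CIN 4, 5 and 6 gave 147, 143 and 151 CPM, so the groups did not overlap (log2 fold change 0.39 ± 0.11, SE; edgeR, adjusted p = 0.549; DESeq2, adjusted p = 0.123). Of the 7 tested genes for matrix proteases, their inhibitor and cross-linking enzymes, 0 were called and 6 were positive, with a median of 0.64. The matrix metalloprotease Mmp1 measured 34.6, 34.9 and 34.9 CPM across the ctrl libraries, while those of CIN gave 53.3, 84.1 and 46.3 CPM (log2 fold change 0.82 ± 0.22, SE; edgeR, adjusted p = 0.4995; DESeq2, adjusted p = 0.0821). The most abundant of this list, Mmp2, AdamTS-B and AdamTS-A, had ranges of 123 to 206, 68.9 to 209.8 and 54.0 to 115.1 CPM, and AdamTS-B was highest in CIN 4 and ctrl 4. As with Tango1, the groups of Mmp1 and AdamTS-A did not overlap. Of all tested genes, 15.3% had no overlap, 7.10% being higher in CIN. Like Tango1 and Mmp1, AdamTS-A was at an unadjusted p under 0.05 (edgeR), as were 7.89% of all tested genes.

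The 10 matrix receptor genes all had positive log2 fold changes, from 0.13 to 0.74 with a median of 0.23, against 0.01 over all tested genes. None passed edgeR's test, and 4 were at an unadjusted p under 0.05: the integrin chains mys, mew and scb and the glypican dally. The beta chain gene mys measured 170.1, 141 and 147 CPM across ctrl 4, 5 and 6, while CIN 4, 5 and 6 gave 231, 202 and 179 CPM (log2 fold change 0.42 ± 0.14, SE; edgeR, adjusted p = 0.601). The alpha chain gene scb measured 50.02, 28.6 and 38.06 CPM across the ctrl libraries, while those of CIN gave 62.3, 77.7 and 55.3 CPM (0.74 ± 0.23; adjusted p = 0.578). For both, and for dally and Sdc, each CIN library was above each ctrl library, as for 7.10% of all tested genes. The most abundant receptor genes, the syndecan Sdc and dystroglycan Dg, lay at 435 to 551 and 297 to 427 CPM. Tango1, Mmp1, mew, scb and dally were named for their unadjusted p and are a description, to be read beside the 7.89% of all tested genes under that p. With mys, they passed in none of the 15 alternatives.

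**Figure D5:**
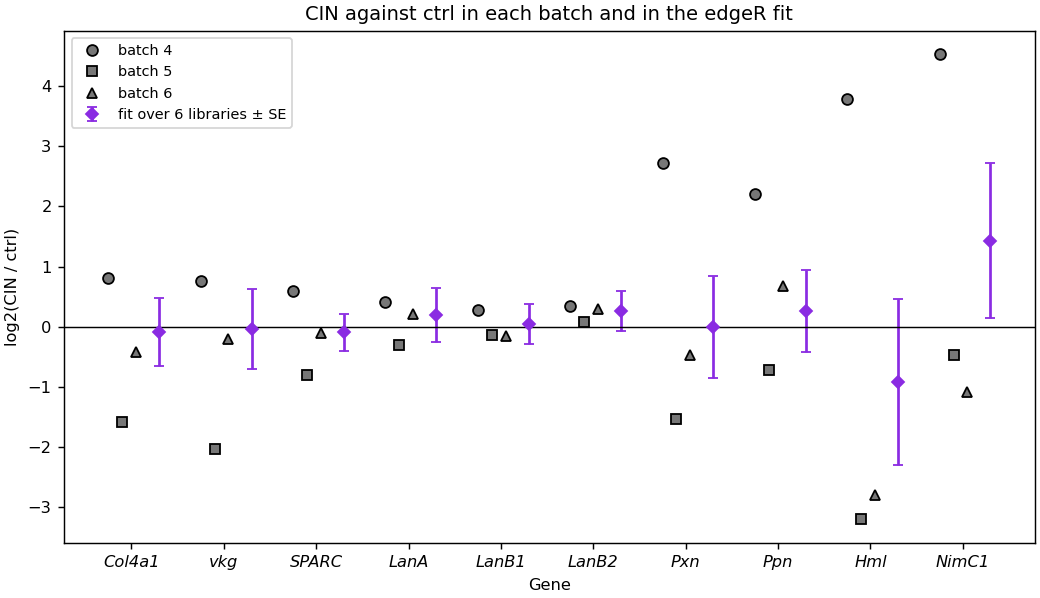
Log2 of CIN over ctrl for each gene in batch 4 (circles), batch 5 (squares) and batch 6 (triangles), and the log2 fold change of the edgeR fit over 6 libraries with its SE (diamonds). Batch 4 is above 0 for all 10 genes, and the SE of the fit crosses 0 for all but NimC1, whose adjusted p was 0.786.

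In batch 4 the log2 differences of the 10 genes had a median of 0.79, in batch 5 of -0.75 and in batch 6 of -0.18, while the medians over all tested genes were -0.00014, -0.01 and -0.01. Batch 4 sets CIN 4 against ctrl 4, the library poorest in Pxn and Ppn, and batch 5 sets CIN 5 against ctrl 5, the library richest in Hml. Single genes ran from 0.27 for LanB1 to 4.52 for NimC1 in batch 4, and from 0.07 for LanB2 to -3.20 for Hml in batch 5. Each batch holds 1 library per genotype, so it gives no test of its own.

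Genes whose pattern over the 6 libraries was most like that of the 10 genes were sought among 7836 others with a mean of at least 5 CPM, by Pearson's r with the mean standardized log2 CPM. The 10 closest were ZnT86D, CycG, Tapdelta, CtsB, Prip, brn, bru2, Debcl, CG12290 and Ccm3, with r from 0.969 to 0.989. For Hml and NimC1 alone the closest were Marc, NimB4, Der-2, regucalcin and Glt, with r from 0.985 to 0.994. NimB4, a secreted Nimrod protein, measured 1.37, 18.4 and 2.07 CPM across ctrl 4, 5 and 6, while CIN 4, 5 and 6 gave 16.1, 3.49 and 0.66 CPM. For the laminins, a search added after the values were seen, they were CG3308, if, CG17121, CG11686 and Moe, with r from 0.987 to 0.997. The integrin alpha chain if measured 80.9, 61.8 and 56.9 CPM across ctrl 4, 5 and 6, while CIN 4, 5 and 6 gave 101, 56.7 and 61.6 CPM. With 6 libraries and so many genes, values this high say only that levels rise and fall alike over the libraries, not by how much. ZnT86D, for instance, ran only from 45.29 CPM in CIN 6 to 52.65 CPM in CIN 4.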

How the data were processed

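The deposited table holds raw whole-number counts for each gene in each of the 6 libraries. Per the submitters' processing notes, Trim Galore, STAR 2.7.10a, featureCounts and the dm6 build were used, with no order or settings given. Per the labels' protocols the libraries were made with NEBNext poly(A) selection and an Ultra II RNA kit, which does not mark strand, with 13 cycles of amplification. Reads of overlapping genes therefore cannot be told apart. For the strand setting, the annotation release and multi-mapping reads, nothing is given in the sources used here.

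From these counts, genes were matched to symbols by FlyBase identifier (14074 of 14150 matched), and positions and exon lengths were taken from an Ensembl annotation of BDGP6, the assembly that dm6 names. Genes were filtered with filterByExpr, scaled by TMM and tested on genotype alone with edgeR 4.0.16 in R 4.3.3 (quasi-likelihood F test, two-sided, Benjamini-Hochberg over 10074 genes, threshold 0.05). The SE is the log2 fold change over the square root of F. CPM uses the TMM-scaled library size, and CPM per kb divides it by the length of all annotated exons merged. The procedure was also run on simulated counts, made with a narrower spread between libraries than these data have. That run does not tell how well changes are found at the real spread. The spread that p-values rest on is that of brain pools taken on different days. Totals of 24668180 to 26292208 counts per library leave counting error small for the 10 genes except NimC1. Some marker genes also had few counts, such as He and NimB5, each with 3 in CIN 6, and NimC2, with 11 to 44.

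The batch number and different days pair the libraries by the labels. Deviations from the group mean correlated across genes, between libraries of one batch, at 0.038, -0.062 and 0.175 in batches 4, 5 and 6. The fit with the batch as a block was an alternative, as were RLE scaling, library totals only, no filter, 1 CPM in 3 libraries, DESeq2 1.42.0, limma-voom (limma 3.58.1), each library left out, and 2 pairs of libraries left out.

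The 10 genes and the gene lists were chosen with earlier results of these data known. Beside the 10 genes, 16 lists were used, 4 of matrix genes and 12 of cell type markers. Genes named from a list are its called members or, where none was called, the 3 of highest mean CPM (up to 4 genes in a short list), and likeness was ranked by Pearson r on log2 values (edgeR cpm, prior count 2). Most other genes are marked in the text as picked for their values. NimC2, Fbp2 and Sgs5 carry no such mark there and are also to be read as named after their values were seen. The ring gland gene nvd was not analysed here.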

Additional observations from a re-analysis of the deposited data

How the results depend on the processing

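Adding batch as a replicate block left edgeR with 0 genes called higher and 0 lower, against 5 and 5 without it, and 0 of the 10 genes either way. DESeq2 called 52 higher and 55 lower, and the filter of 1 CPM called 5 higher and 10 lower. Leaving out both ctrl 5 and CIN 4 gave 0 higher and 1 lower, and leaving out both ctrl 4 and CIN 5 gave 4 higher and 3 lower. With 1 library left out, 0 genes were called higher and 1 to 3 lower. In each of these settings 0 of the 10 genes were called. The median of the 10 ran from -0.42 to 0.29 with 1 library left out and from -0.29 to 0.40 otherwise, and that of all tested genes moved by less than 0.1 under each scaling.

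For 23 genes under 15 alternatives, 305 of 345 values kept their sign and 40 did not, and 0 passed the test. The cause was not tested. Signs changed without both ctrl 4 and CIN 5 for Col4a1 (0.32), vkg (0.56) and Ppn (-0.24), and without both ctrl 5 and CIN 4 for LanA (-0.54), LanB1 (-0.52), LanB2 (-0.19), Pxn (0.49), trol (-0.45), PPO1 (1.40) and PPO2 (0.61). LanB1 was at -0.0089 by limma-voom and -0.0099 with the replicate block, and Pxn at 0.052 with library totals only, 0.23 by limma-voom and 0.11 with the block. With 1 library left out, log2 fold changes ran from -1.08 to 0.27 for Col4a1, -1.16 to 0.41 for vkg, -0.43 to 0.19 for SPARC, -0.41 to 0.57 for LanA, -0.40 to 0.29 for LanB1, -0.12 to 0.55 for LanB2, -0.82 to 1.30 for Pxn, -0.16 to 1.54 for Ppn, -2.61 to 1.32 for Hml, -0.086 to 3.13 for NimC1, -0.24 to 0.57 for trol, -3.33 to 2.57 for PPO1 and -2.94 to 1.63 for PPO2. For the 3 ratios whose groups did not overlap, leaving out libraries could not turn the sign. With 1 library left out, settings added after seeing the data, the log2 difference ran from -2.26 to -1.43 for Hml to NimC1, 1.23 to 1.79 for NimC1 to eater and -0.33 to -0.13 for LanB1 to LanB2. Depth limits NimC1, with 15 to 533 counts per library.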
